A study of Arabidopsis thaliana with 20 samples.

Results

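The genes described here were bright in wild-type plants and differed little, on average, between a photosystem I mutant and the wild type. They were chosen by measured values: a feature paired with exactly 1 gene, a median deposited intensity over the WT arrays in the top 15% of such features, and a mean difference between the groups of less than 1.5-fold in either direction on the normalised log2 scale. Of the 692 features with 1 gene, 104 passed the level, 65 of those also passed the difference, and 61 remained after 4 photosynthesis genes (PSBW, NdhS, PSB27 and PSBY) were left out by name. Level and difference therefore describe how the 61 were chosen and are no test of them.

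The study compared Arabidopsis thaliana of the ecotype Wassilevskija on 20 arrays of total RNA, 10 from plants whose sample titles say hcf145, a mutant impaired in assembling photosystem I, and 10 from wild-type plants (WT). The same samples carry gun5 as their source name, so hcf145 here means the samples with that title. Tissue, age and growth conditions are not given in the labels, and of 18 marker genes of leaf, seed, root, pollen and guard cells only the leaf antenna gene LHCB1.5 was the sole gene of a feature, with a median intensity of 7.72 in hcf145 and 16.4 in WT. In bulk RNA, fewer cells of a type and less RNA per cell cannot be told apart. Each array's intensities added up to 3319 to 3640. Arrays with adjacent numbers (1 and 2, 3 and 4, and so on) resembled each other most on 20 of 20 arrays, so each group holds 5 such pairs, and standard errors and intervals below come from the 5 against 5 averages of these pairs. Whether 2 arrays stand for different plants or for 1 RNA is not given, so the spread behind each p-value may be technical.

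Most proteins of plant chloroplasts and mitochondria are encoded in the nucleus, made in the cytosol and imported. Photosystem I is built in the thylakoid membrane from subunits of both the chloroplast and the nuclear genome, with the help of assembly factors that are also nuclear. Pentatricopeptide repeat and mTERF proteins belong to this nuclear supply: they bind nucleic acids inside the organelles and act in the processing, stability or transcription of organellar RNA.

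No single function dominated the 61 genes. Metabolic enzymes formed the largest class, with 13 genes or 21.3%. Proteins with recognisable domains but no set role followed with 9, signalling proteins with 8, proteins that bind or process RNA with 7, and proteins of folding and turnover with 6. Cell wall and glycan enzymes had 3 members, nuclear and DNA-related proteins 3, and plastid membrane and metal proteins 2. For 10 genes (16.4%) no role is given here. Of the 39 other bright features, which differed by more than the limit, 7 (17.9%) were metabolic enzymes, 3 (7.69%) belonged to the RNA class, 1 (2.56%) was a signalling protein, 4 (10.3%) belonged to photosynthesis and pigments, and 15 (38.5%) had no role assigned. None of the 61 was placed in the photosynthesis and pigments class. The 4 genes of that class within the limit were left out by name. Its absence also depends on how like genes were split: AT5G63290, related to an enzyme of haem and chlorophyll synthesis, and AT1G78620, a phytyl phosphate kinase, were counted as metabolic enzymes. These shares were not tested, and the classes were assigned by hand with the values known.

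**Figure D1:**
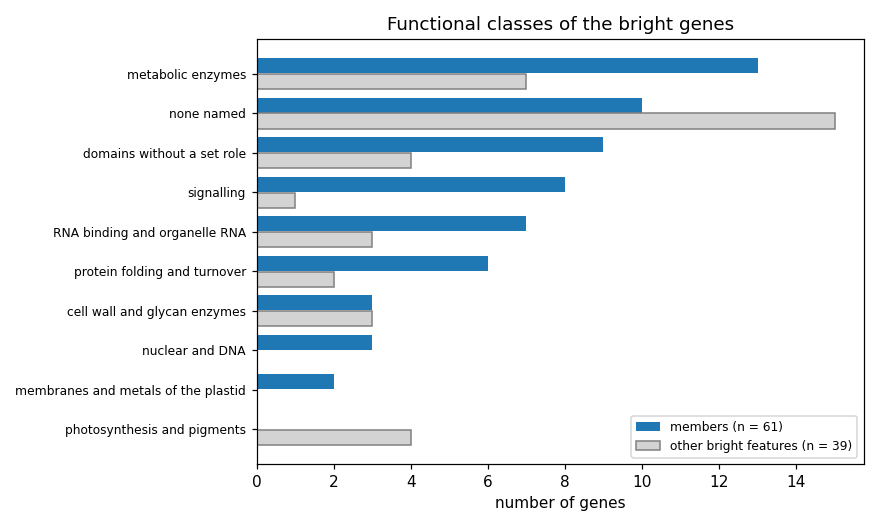
Number of genes in each functional class. The upper bar of each pair stands for the 61 members and the lower bar for the 39 other bright features with a larger difference; metabolic enzymes are the largest class with a role in both, at 13 and 7.

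The 61 genes spanned a wide range of levels. Median WT intensity ran from 1.14 to 72.2 with a middle value of 2.12, and it exceeded 5 for 8 genes, exceeded 10 for 3 and lay under 2 for 27. The middle value of the hcf145 medians was 1.95. All 61 had a value above 0 on all 20 arrays, which the limit on the level favours. Of the 692 features with 1 gene, chosen or not, 146 had at least 1 zero. Of the 10 brightest in each group 7 were the same, an order that the limit on the difference largely fixes. Measured on the hcf145 arrays, 53 of the 61 were in the top 15%. Together the 61 held 7.95 to 9.68% of the summed intensity on the hcf145 arrays (median 9.05%) and 6.37 to 8.13% on the WT arrays (median 7.55%). Without the 3 brightest the shares were 3.49 to 4.54% in hcf145 (median 4.12%) and 3.81 to 4.24% in WT (median 4.10%).

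The level limit lay at a WT median of 1.13. Just inside it stood AT2G03200 (1.18), AT1G78620 (1.16) and AT5G23540 (1.14), and just outside it AT3G02690 (1.12), AT1G50390 (1.12) and AT2G15440 (1.12). Just inside the difference limit were THIC (-0.56), AT2G03200 (-0.56) and LpxA (-0.54), and just outside it AT5G39980 (-0.59), AT1G74470 (-0.60) and AT5G17630 (-0.61). Of the 104 bright features 62.5% were within the difference limit, beside 63% of all 3287 features tested.

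**Figure D2:**
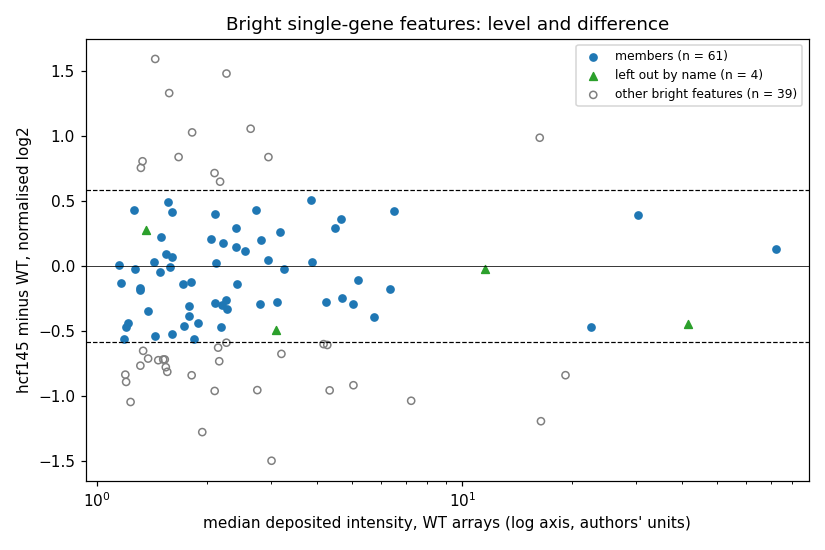
Median WT intensity on a log axis (x) against the hcf145 minus WT difference in normalised log2 (y) for the 104 bright features. Dashed lines mark the limits of 1.5-fold; filled circles are the 61 members, triangles the 4 genes left out by name, and open circles the 39 others, of which 12 are higher and 27 lower in hcf145.

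Among the metabolic enzymes, AT4G31530, a Rossmann-fold protein that binds NAD(P), was the brightest of all. It read 100 on all 10 hcf145 arrays, the highest value in the table, and 37.2 to 90.4 on the WT arrays (median 72.2), lowest on arrays 9 and 10. Its mutant level is therefore only bounded: as deposited the difference was at least 0.58 on the log2 scale. Every hcf145 array then lay above every WT array. The normalised value of 0.13 that made it a member rests on capped values too. It also rests on ranks, since AT4G31530 was the brightest feature with 1 gene on every array. Quantile normalisation gives features of like rank like values, so the small normalised difference was largely fixed by the method. It does not show a like level in both groups. Normalised values ran from 6.20 to 6.49 on the hcf145 arrays and from 5.52 to 6.49 on the WT arrays. AT5G63290, a radical SAM enzyme related to coproporphyrinogen oxidase of haem and chlorophyll synthesis, read 2.47 to 5.43 on the hcf145 arrays (median 3.91) and 2.54 to 4.46 on the WT arrays (median 3.88). AT5G52810, an enzyme of pipecolic acid synthesis, which acts in systemic immunity, read 1.52 to 4.12 in hcf145 (median 3.11), against 1.44 to 3.69 in WT (median 2.94). Both groups covered nearly the same range for these last 2 genes, with differences of 0.03 ± 0.24 and 0.04 ± 0.29 (SE). AT1G24040, an acetyltransferase of the GNAT family, read 1.08 to 4.73 on the hcf145 arrays (median 3.39) and 2.07 to 4.26 on the WT arrays (median 2.54). The hcf145 arrays thus reached higher than WT, and lower through array 9 alone (1.08). Array 10 of hcf145 read 2.19 and arrays 1 to 8 read 2.97 to 4.73, while WT arrays 9 and 10 read 4.26 and 4.17. Without arrays 9 and 10 of both groups its difference was 0.49 in place of 0.12.

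The other metabolic enzymes were dimmer. THIC, which makes the pyrimidine part of thiamine in the chloroplast, had the largest absolute difference of the 61. It read 1.03 to 1.49 in hcf145 (median 1.28), against 1.49 to 2.68 in WT (median 1.84), and on the normalised scale the 2 groups of arrays did not overlap. It was the 1 member of 61 without overlap on that scale, where 4.23% of all features had none. AT2G22890, a relative of fatty acid desaturases, had a difference of 0.50 ± 0.42 (SE), and LpxA, an acyltransferase of the lipid A pathway known from bacteria, of -0.54 ± 0.33 (SE). AT2G38550, of a family that exports fatty acids from plastids, stood at -0.04, and AT1G78620, a kinase of phytyl phosphate in tocopherol synthesis, at -0.13. The reductase-like AT4G27250 (-0.14), the BAHD acyltransferase AT3G50270 (0.07, or -0.42 without arrays 9 and 10), the nitroreductase-like AT1G02020 (-0.12) and the methyltransferase AT2G26680 (-0.47) completed the class. Of the 13, 6 were higher and 7 lower in hcf145, with a median difference of -0.04 beside -0.05 over all features. The split followed the scaling, with 4 higher and 9 lower as deposited, and 9 higher and 4 lower with each array centred on its median.

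Of the 7 genes of the RNA class 5 had lower and 2 higher means in hcf145, with a median difference of -0.40, where 53.5% of all features were lower. In limma 3 of the 7 were lower at an adjusted p under 0.05 on the 20 arrays, where 15.9% of all features were, and 0 passed on the averages, where 7.39% did. All 4 pentatricopeptide repeat genes had lower means, but with arrays centred on their medians AT3G26630 stood at 0.03, and the class then had 4 lower and 3 higher. AT3G13150 read 3.59 to 5.91 on the hcf145 arrays (median 4.06) and 4.82 to 7.79 on the WT arrays (median 5.74), so the groups overlapped although the medians stood apart. AT3G26630 read 2.76 to 4.79 in hcf145 (median 3.65), against 3.20 to 5.17 in WT (median 4.70), with more overlap. AT4G21170 had a difference of -0.46 ± 0.21 and AT2G19280 of -0.44 ± 0.23 (SE). The 2 mTERF-family genes went opposite ways. AT4G09620 read 1.76 to 4.79 on the hcf145 arrays (median 3.91) and 2.10 to 3.89 on the WT arrays (median 3.16) and had a difference of 0.26 ± 0.31 (SE), while AT1G62150 was at -0.52 ± 0.26 (SE). AT2G37510, which carries an RNA recognition motif, read 1.07 to 3.38 in hcf145 (median 2.28), against 1.13 to 2.64 in WT (median 2.40), nearly the same median in both groups. The direction of this class was among the values that chose its members, and was not tested.

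Of the 8 signalling genes 5 had higher means in hcf145, with a median difference of 0.12, where 46.5% of all features were higher. The count was 4 of 8 as deposited and 4 of 8 without arrays 9 and 10, where AT3G04210 stood at -0.23. AT4G32060, an EF-hand protein that regulates the calcium uniporter of mitochondria, read 2.38 to 9.07 on the hcf145 arrays (median 7.23) and 3.78 to 7.96 on the WT arrays (median 4.48). AT3G57120, a protein kinase, read 1.13 to 2.47 in hcf145 (median 1.95), against 1.59 to 2.83 in WT (median 2.26). AT3G04210, a TIR-NBS protein of the immune receptor family, read 0.820 to 2.71 on the hcf145 arrays (median 1.89) and 0.374 to 2.86 on the WT arrays (median 2.05), and the calmodulin-like CML30 read 1.08 to 1.85 in hcf145 (median 1.35), against 1.63 to 3.17 in WT (median 1.79). All 4 overlapped between the groups. The receptor-like kinase AT2G39360 had a difference of 0.42 ± 0.21 and AT3G25840, a nuclear kinase linked to pre-mRNA splicing, of 0.43 ± 0.24 (SE). The protein kinase AT2G40980 stood at 0.03 and AT4G05070, of a wound-responsive family, at -0.31.

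Protein folding and turnover held 6 genes. AT4G17070, related to peptidyl-prolyl isomerases, was the third brightest member and read 5.21 to 32.2 on the hcf145 arrays (median 19.6) and 9.21 to 34.2 on the WT arrays (median 22.5), the hcf145 arrays spreading more widely. XERICO, a RING-finger protein known for raising abscisic acid levels, read 4.39 to 9.43 in hcf145 (median 6.30), against 4.11 to 6.26 in WT (median 4.65). AT1G49850 and AT2G39100 also carry RING fingers, typical of ubiquitin ligases. All 3 RING genes had higher means in hcf145, where 46.5% of all features were higher. Without arrays 9 and 10 XERICO stood at 0.26, AT1G49850 at 1.0 and AT2G39100 at 0.08, the last in place of 0.40. AT1G49850 read 0.690 to 5.97 on the hcf145 arrays (median 4.36) and 1.94 to 3.09 on the WT arrays (median 2.72). AT2G39100 read 1.73 to 2.92 in hcf145 (median 2.12), against 0.512 to 3.50 in WT (median 2.10). Its WT arrays 9 and 10 read 0.512 and 0.586, where WT arrays 1 to 8 read 1.37 to 3.50. AT2G03200, an aspartyl protease, was lower at -0.56 ± 0.24 (SE), and AT5G23540, the deubiquitinating subunit of the proteasome lid, stood at 0.01 ± 0.43 (SE), a mean close to 0 with a wide error.

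The small classes gave similar spreads. Among cell wall and glycan enzymes, the glycosyltransferase AT4G19900 read 4.68 to 8.95 on the hcf145 arrays (median 8.29) and 2.50 to 7.98 on the WT arrays (median 6.5). AT4G18180, a pectin lyase-like protein, read 1.64 to 4.73 in hcf145 (median 2.40), against 0.387 to 5.36 in WT (median 3.24), and AT1G35510, of the O-fucosyltransferase family, read 1.84 to 9.22 on the hcf145 arrays (median 2.95) and 2.06 to 5.09 on the WT arrays (median 2.81). For AT4G19900, 8 of the 10 hcf145 arrays read above the highest WT array, a count that was not made over all features. Its hcf145 arrays 9 and 10 (4.98 and 4.68) lay within the WT range. The other two overlapped, AT1G35510 reaching above WT on some hcf145 arrays. FZL, a dynamin-like GTPase that shapes thylakoid membranes, read 1.58 to 3.67 in hcf145 (median 2.08), against 2.07 to 3.95 in WT (median 3.10). CUTA, a copper-binding chloroplast protein, read 1.80 to 5.09 on the hcf145 arrays (median 2.11) and 2.07 to 7.62 on the WT arrays (median 2.78). Both plastid genes had lower medians in hcf145. Among nuclear genes, the bHLH transcription factor AT4G00870 read 2.07 to 5.07 in hcf145 (median 2.49), against 2.15 to 2.66 in WT (median 2.39). The chromatin remodeller chr31 read 2.19 to 2.85 on the hcf145 arrays (median 2.47) and 1.90 to 2.80 on the WT arrays (median 2.21), and the photolyase-domain protein AT4G25290 read 1.14 to 1.89 in hcf145 (median 1.41), against 1.04 to 2.18 in WT (median 1.58). For AT4G00870 the SD on the normalised log2 scale was 0.45 between the hcf145 arrays and 0.11 between the WT arrays, the lowest WT SD of the 61. Its hcf145 arrays 9 and 10 read 5.07 and 5.04, whereas hcf145 arrays 1 to 8 read 2.07 to 2.69. Without arrays 9 and 10 of both groups its difference was 0.09 in place of 0.29.

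Several bright members have domains but no set role. AT2G27290, with a domain of unknown function, was the second brightest member and read 29.2 to 58.2 on the hcf145 arrays (median 52.1) and 20.1 to 35.5 on the WT arrays (median 30.4), mostly higher in hcf145. AT4G35660, also with an unknown domain, read 0.345 to 8.81 in hcf145 (median 6.46), against 0.621 to 8.56 in WT (median 6.32), the widest range of the 61 as a ratio of highest to lowest. AT4G39760, a kelch-repeat protein, read 3.78 to 5.96 on the hcf145 arrays (median 4.54) and 4.14 to 5.68 on the WT arrays (median 5.19), and AT2G46300, related to late embryogenesis abundant proteins, read 1.70 to 4.50 in hcf145 (median 3.38), against 1.51 to 5.81 in WT (median 5.0). The first of these last 2 covered a narrow and shared range. On arrays 1 to 8 AT2G46300 read 3.07 to 4.50 in hcf145 and 4.39 to 5.81 in WT. Without arrays 9 and 10 of both groups its difference was -0.48 in place of -0.29. The tetratricopeptide repeat protein AT3G26580 stood at -0.14, the WD40-repeat protein AT3G09080 at -0.44, the mobile-domain protein AT1G50770 at 0.09, and AT2G44760 and AT3G19810, both with unknown domains, at -0.33 and 0.02. Of the 10 genes with no role given, AT1G50880 read 2.30 to 5.95 on the hcf145 arrays (median 3.25) and 2.77 to 6.44 on the WT arrays (median 4.23), and AT1G13990 read 3.47 to 8.86 in hcf145 (median 5.18), against 2.91 to 4.84 in WT (median 3.86). AT1G13990 had the highest positive difference of the 61, 0.51 ± 0.26 (SE). The other eight (AT1G62250, AT3G44570, AT3G61870, AT1G01730, AT5G06790, AT2G47360, AT5G38310 and AT1G64430) lay between -0.47 and 0.22.

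**Figure D3:**
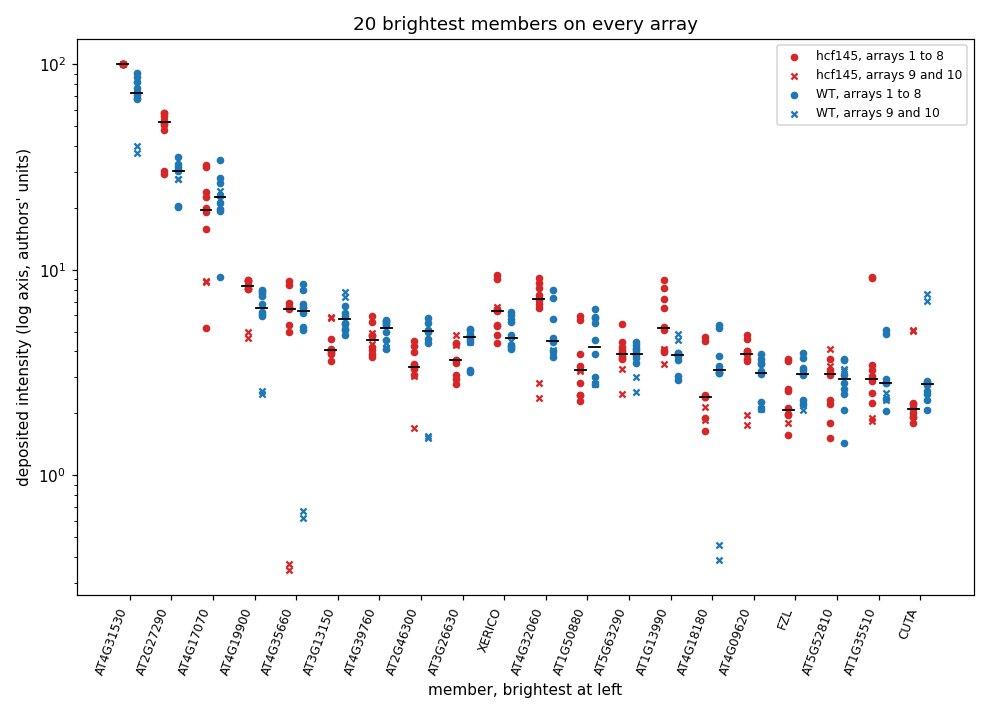
Deposited intensity (log axis) of the 20 brightest members on every array, hcf145 in red left of WT in blue. Circles are arrays 1 to 8, crosses arrays 9 and 10, and black bars the medians over 10 arrays; for AT4G35660 the crosses of both groups lie far below the circles, at 0.345 to 0.668.

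With the groups treated as unpaired, a small mean difference did not amount to a measured absence of change. Differences of the 61 genes ran from -0.56 to 0.51, 35 lower and 26 higher in hcf145, with a median of -0.11 beside -0.05 over all features. In 23 genes the difference was under 0.2 in size and in 17 it was 0.4 or more. Over all features, which were not chosen for a small difference, the 95% interval from the averages lay wholly inside the 1.5-fold limits for 3.47%. It did so for 6 of the 61 genes, a share that the rule favours. These 6 were AT5G63290 (-0.49 to 0.56), AT3G19810 (-0.50 to 0.54), AT4G25290 (-0.53 to 0.52), AT2G40980 (-0.52 to 0.58), AT4G39760 (-0.57 to 0.36) and AT4G27250 (-0.58 to 0.30). For 24 of the 61 the interval reached past a 2-fold difference in at least 1 direction. It held 0 for 58 genes, all but THIC, AT4G21170 and AT2G03200. For each member but these 6 the interval held values beyond the limit. All these intervals treat the groups as unpaired, although deviations of same-numbered arrays were correlated between 0.09 and 0.43. Intervals with the pair number as a replicate block are not given here, so the effect of pairing on these counts is not known.

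Conversely, some members passed the test across all features. In limma on the 20 arrays 12 of the 61 had an adjusted p under 0.05, 4 higher and 8 lower in hcf145, where 29.1% of all features passed, 13.2% higher and 15.9% lower. The 4 higher were AT2G27290, AT1G13990, AT2G39360 and AT3G25840, and the 8 lower were THIC, AT2G03200, AT1G62150, AT3G44570, AT4G21170, AT3G09080, AT3G13150 and CML30. THIC had the smallest adjusted p among the members (0.00305 in limma). On the averages of adjacent arrays 0 of 61 passed in limma, 3 had an unadjusted p under 0.05, and 7.39% of all features passed, or 26% unadjusted. Nothing is read from these counts, since a limit on the difference keeps large differences out. They also treat the groups as unpaired. With the pair number as a replicate block 500 features were called on the averages, in place of 243, and the members among them are not given here.

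**Figure D4:**
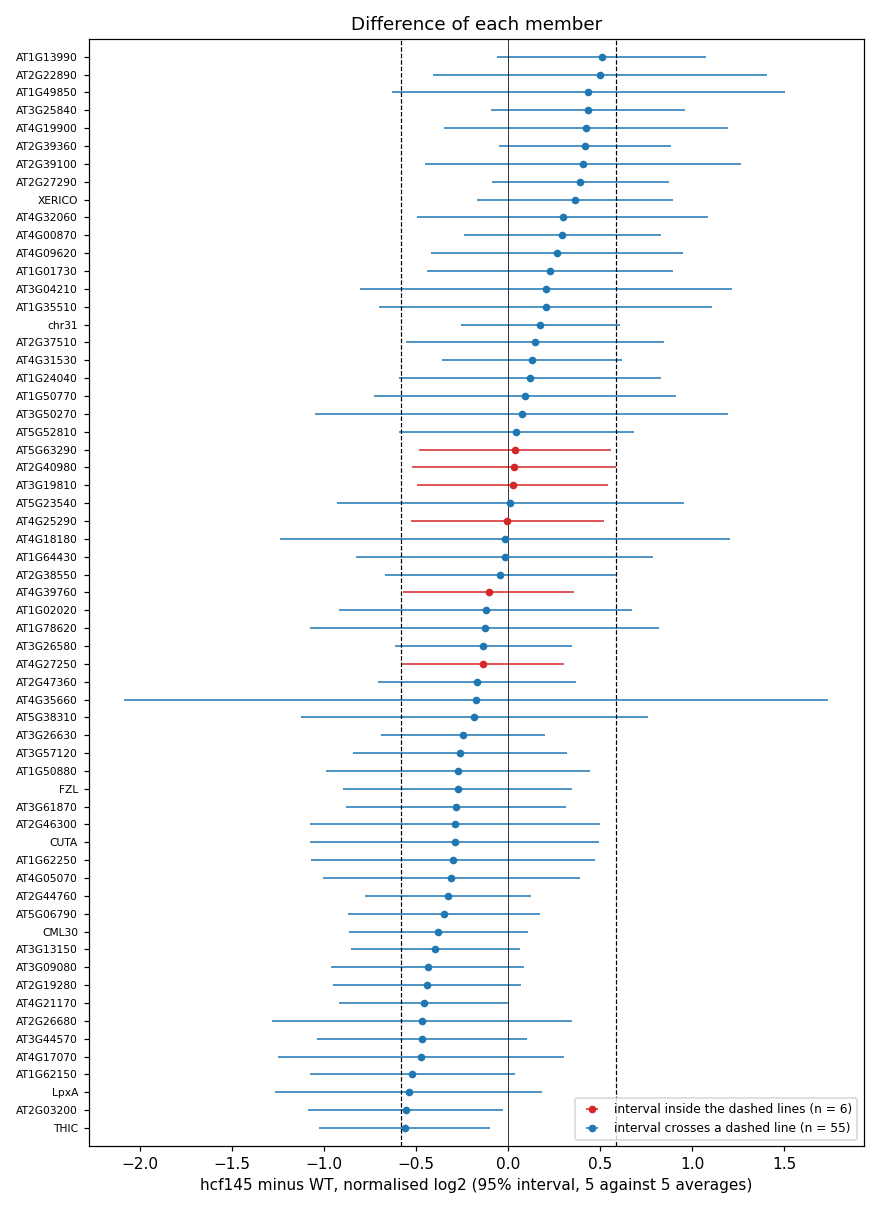
The hcf145 minus WT difference of each of the 61 members in normalised log2, with its 95% interval from the 5 against 5 averages of adjacent arrays. Dashed lines mark the limits of 1.5-fold; the 6 genes in red have intervals wholly between them.

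The spread between arrays differed widely among the members. Between the 10 hcf145 arrays the SD of the normalised log2 values ran from 0.10 to 1.73 (median 0.43) and between the 10 WT arrays from 0.11 to 1.37 (median 0.38), beside medians of 0.57 in hcf145 and 0.45 in WT over all features tested. The hcf145 SD exceeded the WT SD in 30 of 61 members, against 66.1% of all features. The 39 other bright features, at a like level, had median SDs of 0.44 in hcf145 and 0.39 in WT, close to those of the members. In 5 genes the SD exceeded 1 in at least 1 group: AT4G35660, AT1G49850, AT4G18180, AT3G50270 and AT3G04210.

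In these 5 genes arrays 9 and 10 stood apart. AT4G35660 read 0.371 and 0.345 on hcf145 arrays 9 and 10, where arrays 1 to 8 read 4.99 to 8.81. On WT arrays 9 and 10 it read 0.621 and 0.668, where arrays 1 to 8 read 5.11 to 8.56. The drop was thus present in both groups and left the mean difference small. AT4G18180 read 0.459 and 0.387 on WT arrays 9 and 10, against 3.14 to 5.36 on the other WT arrays, while its hcf145 arrays 9 and 10 were at 1.86 and 2.14, inside the range of the others. AT3G50270 was at 0.149 and 0.257 on WT arrays 9 and 10, against 1.53 to 1.76 on arrays 1 to 8. AT3G04210 was at 0.374 and 0.407 there, against 1.24 to 2.86. These last 3 genes were low on WT arrays 9 and 10 and within the range of the other arrays in hcf145. CUTA and AT1G62250 went the other way in both groups: CUTA read 5.06 and 5.09 on hcf145 arrays 9 and 10 (others 1.80 to 2.24) and 7.62 and 7.07 on those of WT (others 2.07 to 2.87).

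Over the 61 genes, normalised values of both arrays 9 and 10 lay outside the range of arrays 1 to 8 for 30 genes in hcf145 (11 above, 19 below). This was 49.2%, beside 32.7% of all features and 31.4% of those with 1 gene. In WT it held for 26 genes (10 above, 16 below), or 42.6%, beside 39% of all features and 38.6% of those with 1 gene. The differences between these shares were not tested. In 14 genes this held in both groups, in 12 of them in the same direction. The share of all features apart in both groups was not computed, so the counts of 14 and 12 are no trait of the members. What sets these arrays apart is not given in the labels, and its part in the results was not tested.

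**Figure D5:**
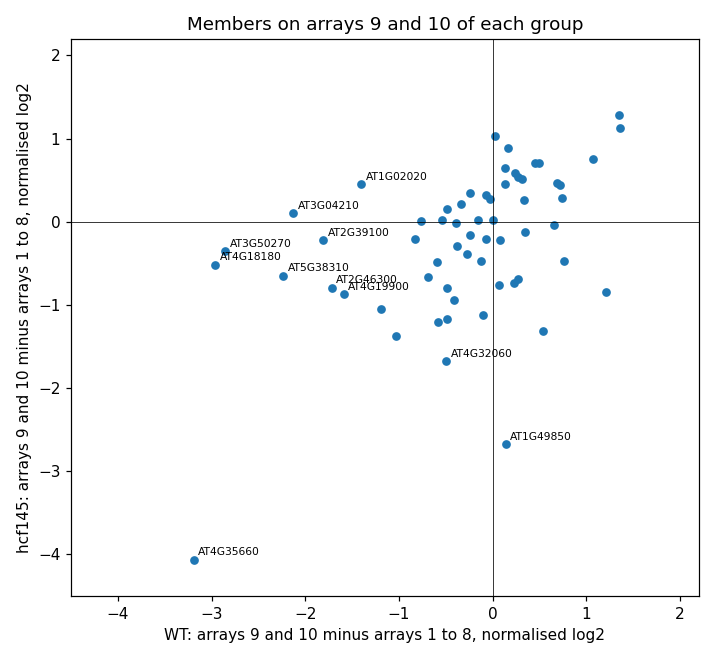
For each of the 61 members, the mean of arrays 9 and 10 minus the mean of arrays 1 to 8 in normalised log2, WT on the x axis and hcf145 on the y axis. AT4G35660 is far below 0 in both groups, AT1G49850 in hcf145 alone and AT4G18180 mainly in WT; CUTA and AT1G62250 are above 1 in both.

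Leaving out arrays 9 and 10 of both groups moved 5 of the 61 genes past the difference limit and changed the sign of 7. Moves within the limit included AT4G18180, at -0.51 in place of -0.02, AT3G50270, at -0.42 in place of 0.07, and AT3G04210, at -0.23 in place of 0.21. Farthest outside the limit was AT1G49850, at 1.0 ± 0.22 (SE) in place of 0.44 ± 0.49. On arrays 1 to 8 it read 3.57 to 5.97 in hcf145 and 1.94 to 3.09 in WT, with no overlap. How many of all features had no overlap on these arrays was not computed, and fewer arrays make it more likely. On hcf145 arrays 9 and 10 AT1G49850 read 0.690 and 0.730, below every WT array. It was the 1 member of 61 that passed on the averages without these arrays (limma adjusted p = 0.0279), where 9.87% of all features passed. AT1G13990 was then at 0.71, AT2G03200 at -0.67, AT1G62150 at -0.61 and AT2G26680 at -0.60. With the remaining 16 arrays counted singly, 17 of the 61 passed in limma, beside 33.1% of all features. The interval lay wholly inside the limits for 6.22% of all features and for 9 members, a share that the rule again favours. Among these 9 was AT4G35660, which had the widest interval with all arrays (-2.09 to 1.74).

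Which genes count as little changed also depended on the scale. In the values as deposited, where the median feature was at -0.32, 54 of the 61 were within the limit, beside 56.4% of all features. Without AT4G31530, whose 0.58 is a lower bound, this was 53 of 60. The members' median was -0.16 (40 lower, 21 higher). The 7 that were not were AT2G27290 (0.75), THIC (-0.62), AT1G62150 (-0.64), LpxA (-0.73), AT2G19280 (-0.63), AT2G26680 (-0.65) and AT2G03200 (-0.71). Centring each array on its median added the same 0.285 to every member's difference as deposited and put the median feature at -0.04. The members' median was then 0.13 (24 lower, 37 higher), and 50 of 61 were within the limit. Of the genes outside it AT2G27290 stood at 1.03, AT1G13990 at 0.79, and AT4G31530 at 0.87 or more. The sign of the members' median was therefore set by the choice of scaling.

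For 6 members a second feature names the gene beside others, so its signal may come from any of them. In the second feature of AT3G26630 the difference was -0.57 (member -0.25), of AT1G35510 0.51 (member 0.20), of AT5G06790 -0.65 (member -0.35) and of AT4G31530 -0.30 (member 0.13). For AT2G38550 the second feature was dim, with medians of 0.0943 in hcf145 and 0.00308 in WT, and stood at 2.19 (member -0.04). That of AT2G37510 had a median listed at 0 in both groups and was not tested. Of the 5 with a value, 3 had the sign of the member and 2 the opposite.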

How the data were processed

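Total RNA was measured on 20 arrays, 10 per group, grouped by sample title. The deposited values are linear intensity, judged by their range (0 to 100 over 3439 features); quantification, scaling and capping are not given in the sources used here. GEO's platform annotation gave the gene names (692 with 1 gene, 870 with several, 1877 with none), and 690 of the 692 matched RefSeq genes of TAIR10.1, used for names only. That table lists symbols without descriptions: keyword classes matched 2 members, and classes were instead assigned by hand from general knowledge.

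Zeros were set missing, values taken to log2 and quantile normalised over 20 arrays, and 152 features lacking 5 values in each group were then dropped, leaving 3287. Differences are hcf145 minus WT. limma 3.58.1 in R 4.3.3 (lmFit, eBayes, two-sided, Benjamini-Hochberg over all features tested, threshold 0.05) was run on 20 arrays and on averages of adjacent arrays, which gave the 95% intervals, and was tested on simulated data. The number of arrays limits the precision.

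Members, lists and tests were chosen with earlier results of these data known. Ranges by array are given for the 20 brightest members and for up to 4 brightest of each class with at least 3 members, 30 genes in all, by rule; THIC, the members nearest a limit and those apart on arrays 9 and 10 were added after their values were seen. Alternatives changed the scaling, zeros, dim features, limits, pairs and arrays.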

Additional observations from a re-analysis of the deposited data

Results flagged for a closer look

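AT2G46300, a bright gene related to late embryogenesis abundant proteins, stood at 0.716 on hcf145 array 10 on the normalised log2 scale, where the other hcf145 arrays ran from 1.48 to 2.09. This was the only single array far from the rest of its group in the 60 groups of arrays examined, and about 5% of groups would show one by chance. Pairs of arrays that deviate together, such as arrays 9 and 10 for AT4G35660, escape such a search. AT2G46300 itself was low on arrays 9 and 10 of both groups. Its WT arrays 9 and 10 stood at 0.66 and 0.64, where WT arrays 1 to 8 ran from 2.26 to 2.64. On hcf145 array 9 it stood at 1.48, below hcf145 arrays 1 to 8. The low value on hcf145 array 10 is therefore not a deviation of that array alone.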

How the results depend on the processing

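The number of genes that met the rule was 61 and stayed between 54 and 66 under the other scalings, treatments of zeros and dim features, averaging, and without arrays 9 and 10 (60 to 64 with 1 array left out); it was 36 with a limit of 0.3 and 90 with a limit of 1 on the difference, and 43 with the top 10% and 78 with the top 20% by level. Metabolic enzymes numbered 13, 8 with the top 10% and 20 with a limit of 1 (11 to 14 with 1 array left out). The 956 features called on 20 arrays became 243 with adjacent arrays averaged, and 816 to 987 with 1 array left out. Same-numbered arrays of the groups had deviations correlated between 0.09 and 0.43, over 0.1 for 9 of 10 numbers. Pairing was taken as given only with every number over 0.1, so the arrays were not treated as paired, although same-numbered arrays share some of their deviation. With the array number as a replicate block 1239 features were called, or 500 on averages with the pair number as a replicate block, added after the data had been seen; 61 genes met the rule in both. The members' median difference ran from -0.13 to -0.03 with 1 array left out, and was 0.13 with arrays centred on their medians. Levels near the top of the table are limited by its maximum.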
